A study of Arabidopsis thaliana with 8 samples.

Results

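Of the 36146 regions called for histone H3 acetylated at lysine 27 (H3K27ac) on the 5 nuclear chromosomes, 3893 lay at the 3' ends of protein-coding genes and away from gene starts. A region was counted there when its midpoint fell within 500 bp of the end of a protein-coding gene and more than 500 bp from the start of every protein-coding gene. That is 10.8% of all H3K27ac regions (exact Clopper-Pearson 95% interval 10.5 to 11.1). The bases of the nuclear genome that meet the same rule, called the end space below, added up to 16.5 Mb, or 13.9% of the genome. The choice of regions used their position alone, and no level of any mark entered it.

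The chromatin came from Arabidopsis thaliana, from non-hair cells in the epidermis of the root, and was precipitated with antibodies and sequenced (ChIP-seq). Every sample came from the same Col-0 line, which carries the biotin ligase BirA under the constitutive ACT2 promoter (ACT2p:BirA) and the nuclear targeting protein NTF under the GLABRA2 promoter, so that nuclei of non-hair cells can be biotinylated and captured (INTACT). Plants were 10 days past germination, and 3 g of tissue per sample was cut from root pieces of 1.25 cm in the zone of complete differentiation. There was 1 library each for H3K27ac, for H2A.Z (a variant of histone H2A), H3K4me1, H3, H3K4me3 and H3K27me3, and the 2 input samples were not analysed here. With 1 library per target there is no replicate, and every interval given covers counting error only. The labelled cell type was set against markers: H3K27ac touched 6 of 10 non-hair genes and 4 of 10 root hair genes, against 68.3% of all protein-coding genes. H3K27me3, a mark of silenced genes, touched 4 of the non-hair genes and 8 of the root hair genes, against 45% of all protein-coding genes.

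H3K27ac is laid down by acetyltransferases and is known mainly from the first nucleosomes of transcribed genes, where it usually stands together with H3K4me3 and H2A.Z. H3K4me1 in plants covers the bodies of transcribed genes and thins out towards their ends. The 3' end of a gene is where the transcript is cleaved and polyadenylated, where a convergent neighbour may end, and where antisense noncoding RNAs can begin, as is known for FLC and its COOLAIR transcripts.

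Sequences at a few of these regions are shown first, because the regions differ in what the DNA under them is annotated to do. The first set holds the starts of 4 antisense long noncoding RNA genes that lie under or next to some of the longest regions with such a start nearby. Each stretch runs 5′ to 3′ on the strand of the noncoding gene, from 100 bases before its annotated start to 50 bases from the start onward, with TATAAA in capitals where it occurs (TAIR10 coordinates, sequence from the RefSeq TAIR10.1 assembly).
AT1G15002 at the end of scpl50, chr1:5170522-5170671, minus strand: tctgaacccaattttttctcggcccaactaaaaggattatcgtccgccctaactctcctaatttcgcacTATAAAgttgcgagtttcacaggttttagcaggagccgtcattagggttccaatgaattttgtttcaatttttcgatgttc
AT1G67365 at the end of ASY1, chr1:25238295-25238444, plus strand: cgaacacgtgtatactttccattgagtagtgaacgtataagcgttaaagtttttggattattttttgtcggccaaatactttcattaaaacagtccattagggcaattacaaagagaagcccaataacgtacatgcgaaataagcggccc
AT3G46658 at the end of UGT76E12, chr3:17188739-17188888, plus strand: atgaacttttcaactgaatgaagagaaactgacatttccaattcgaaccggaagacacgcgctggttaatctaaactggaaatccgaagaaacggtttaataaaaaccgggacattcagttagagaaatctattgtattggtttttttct
AT4G09432 at the end of AT4G09435, chr4:5975146-5975295, minus strand: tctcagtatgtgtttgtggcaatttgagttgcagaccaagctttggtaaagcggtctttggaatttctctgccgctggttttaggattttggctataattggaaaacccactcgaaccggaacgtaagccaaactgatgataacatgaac
Only the start opposite scpl50 holds TATAAA on its own strand, beginning 31 bases before the annotated start; TATA elements of plant promoters are known to sit at about that distance. TATAAA was present in the 50 bases before 23 of 333 antisense noncoding starts in the end space (6.91%, 95% interval 4.43 to 10.2). It was present before 5.60% of all 4287 noncoding starts (4.93 to 6.33) and before 11.0% of all protein-coding starts.

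The second set shows 5 regions without regard to antisense starts. AT5G10570 and FTSZ2-2 stand for regions over 2000 bp from every protein-coding start, and ABCB16, NFC5 and TXND9 for regions that share many bases with H2A.Z, H3K4me1 and H3. Each stretch runs 5′ to 3′ on the strand of the named gene and lies outside annotated UTRs. Capitals mark 4 short motifs on either strand: TATAAA as in TATA boxes, AATAAA as in polyadenylation signals, GGGCC as in site II elements and AAACCCT as in telo-boxes (TAIR10 coordinates, sequence from the RefSeq TAIR10.1 assembly).
AT5G10570, chr5:3343388-3343687, plus strand: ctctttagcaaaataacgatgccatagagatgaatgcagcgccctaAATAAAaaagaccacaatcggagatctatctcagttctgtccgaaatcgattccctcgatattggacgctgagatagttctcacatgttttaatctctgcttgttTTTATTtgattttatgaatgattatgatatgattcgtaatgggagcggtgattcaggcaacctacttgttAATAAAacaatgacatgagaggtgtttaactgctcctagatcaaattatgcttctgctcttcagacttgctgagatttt
FTSZ2-2, chr3:19549151-19549450, minus strand: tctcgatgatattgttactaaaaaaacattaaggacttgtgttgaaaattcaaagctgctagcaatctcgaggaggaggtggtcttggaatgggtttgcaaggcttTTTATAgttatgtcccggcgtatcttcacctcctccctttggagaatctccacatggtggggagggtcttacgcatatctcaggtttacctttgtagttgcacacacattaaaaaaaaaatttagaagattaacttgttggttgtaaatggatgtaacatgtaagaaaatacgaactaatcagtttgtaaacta
ABCB16, chr3:10611351-10611650, minus strand: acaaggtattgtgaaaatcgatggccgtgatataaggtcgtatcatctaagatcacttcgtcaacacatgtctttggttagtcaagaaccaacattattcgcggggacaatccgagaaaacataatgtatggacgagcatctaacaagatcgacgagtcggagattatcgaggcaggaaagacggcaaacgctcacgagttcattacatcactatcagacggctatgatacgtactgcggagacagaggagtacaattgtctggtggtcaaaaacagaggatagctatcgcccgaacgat
NFC5, chr4:14558777-14558926, minus strand: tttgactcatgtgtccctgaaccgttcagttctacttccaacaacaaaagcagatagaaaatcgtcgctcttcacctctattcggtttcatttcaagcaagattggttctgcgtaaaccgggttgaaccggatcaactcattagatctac
TXND9, chr2:8238195-8238494, minus strand: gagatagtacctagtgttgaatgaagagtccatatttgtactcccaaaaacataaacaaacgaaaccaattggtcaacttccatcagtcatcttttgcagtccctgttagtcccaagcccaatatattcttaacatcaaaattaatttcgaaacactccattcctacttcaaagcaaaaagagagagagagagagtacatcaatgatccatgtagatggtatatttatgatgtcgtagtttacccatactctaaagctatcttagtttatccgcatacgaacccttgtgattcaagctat
The ABCB16 stretch is entirely coding sequence of a transporter gene, while the other 4 lie outside protein-coding genes. The AT5G10570 stretch begins inside AT5G01785, a gene for a small nucleolar RNA (snoRNA) annotated at chr5:3343371-3343521, plus strand. A motif match is a description of the letters and does not show a site in use.

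The 3893 regions belonged to 3642 genes, counting for each region the gene with the nearest end. Of the 26571 protein-coding genes with any end space to hold such a region, 13.7% had at least 1. Most of them, 3395 genes, had 1 region, 243 had 2, and 4 genes had 3. These 4 were AT2G47680, AT3G11600, HINT4 and LSU4. The regions were spread evenly over the chromosomes, making up between 10.6% and 11.1% of the H3K27ac regions on each.

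H3K27ac regions at gene ends were short. Their median length was 179 bp, which is the smallest size in the H3K27ac list, and 53.4% of them (95% interval 51.8 to 55.0) had exactly that size. The same size made up 29.8% of H3K27ac regions at gene starts, 42.1% of those in gene bodies, 57.7% of the 3466 that lay elsewhere and 39.7% of all H3K27ac regions. A total of 143 regions reached 500 bp. The 8 longest were at the ends of AT1G26220 (1095 bp, an acyltransferase family protein), AT5G13900 (986 bp), GATA1 (889 bp, a GATA transcription factor), AT2G01510 (884 bp), scpl50 (877 bp), IAA34 (869 bp, of the auxin-response repressor family), PH1 (835 bp) and AT3G46845 (830 bp). Of these, AT1G26220, scpl50 and AT3G46845 have an antisense noncoding gene that starts within 500 bp of the region's midpoint.

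Within the end space the regions leaned to the inside of the gene. Their midpoint was inside the gene in 2504 cases (64.3%, 95% interval 62.8 to 65.8), whereas 52.5% of the end space is inside. The density was 35.9 regions per 100 kb of end space at 500 to 401 bp before the end. It was 14.9 per 100 kb at 101 to 200 bp beyond the end, the lowest of the 10 steps of 100 bp, and 21.1 per 100 kb at 401 to 500 bp beyond. The last 100 bp up to the end had 18.7 per 100 kb and the first 100 bp beyond it 16.8.

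**Figure D1:**
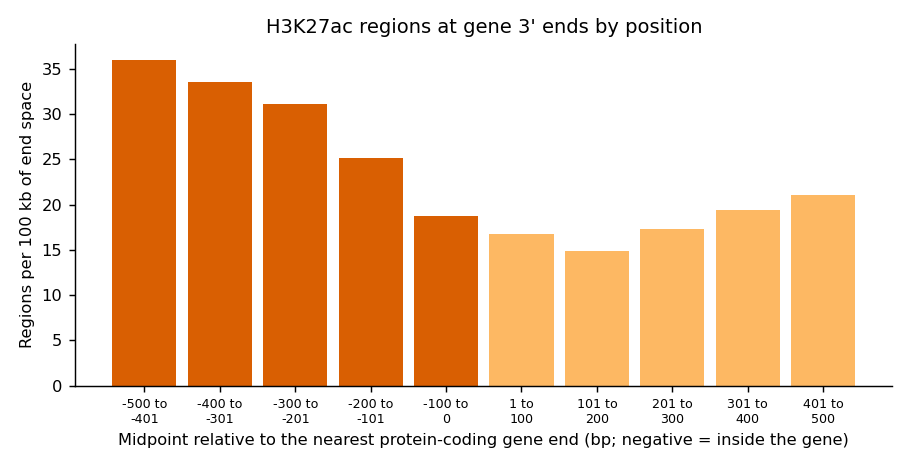
H3K27ac regions at gene 3' ends per 100 kb of end space, in steps of 100 bp from 500 bp inside the gene (dark bars) to 500 bp beyond its end (light bars). The density falls from 35.9 at the far inside to 14.9 at 101 to 200 bp beyond the end, and is 21.1 at the far outside.

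By annotation, 44.9% of the midpoints lay in coding sequence, against 29.8% of the end space. UTRs held 27.8% of the midpoints and 29.7% of the end space, and introns held 6.06% of the midpoints and 7.03% of the end space. Sequence outside protein-coding genes held 21.2% of the midpoints, against 33.4% of the end space. Of the 1389 regions beyond the end of their gene, 552 (39.7%) had the midpoint inside another protein-coding gene. A further property of compact genomes showed in the count of 806 regions (20.7%) that were within 500 bp of 2 or more protein-coding ends.

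The dip around the gene end was also present when all ends, marked or not, were averaged. At the 8167 ends that belong to genes 2000 bp or longer and have 1000 bp free of gene starts beyond them, H3K27ac covered the fewest ends in the 50 bp step centred 25 bp beyond the end, 3.13%. It covered 6.47% of bases from 1000 to 500 bp inside the gene and 7.24% from 500 to 1000 bp beyond. The other 5 targets had their minimum within 175 bp of the end too. It was 2.88% for H2A.Z, 3.34% for H3K4me1, 2.94% for H3, 0.630% for H3K4me3 and 4.78% for H3K27me3. H3K4me1 changed most along the way, from 22.8% of bases at 1000 to 500 bp inside, through 8.06% in the last 500 bp, to 5.97% in the first 500 bp beyond. From 500 to 1000 bp beyond it was at 12.5% again. The choice of ends did not use the ends of neighbouring genes, so convergent genes may lie there. Windows of 200 bases centred on ends without H3K27ac had 31.9% G and C, against 39.5% for windows 300 bp inside such ends; the part of base composition in this dip was not tested.

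**Figure D2:**
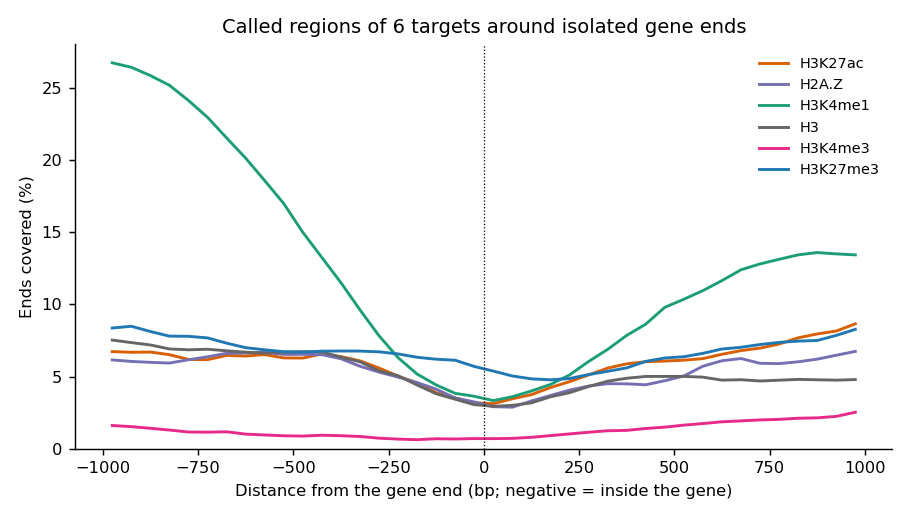
Percent of 8167 isolated gene ends covered by the called regions of each target, in 50 bp steps from 1000 bp inside the gene (negative) to 1000 bp beyond its end. All 6 lines are lowest near the end; H3K4me1 drops from 26.7% at the inner edge to 3.34% just beyond the end.

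The distance from starts was kept over 500 bp by the rule, but the density still depended on it. The median distance of the regions to the nearest protein-coding start was 1190 bp, against 1407 bp for the end space. From 501 to 1000 bp from a start there were 1552 regions, or 30.9 per 100 kb. From 1001 to 2000 bp there were 1542, or 22.1 per 100 kb, and beyond 2000 bp there were 799, or 17.6 per 100 kb. The region density thus fell with distance but did not run out, with 16.1 per 100 kb still present more than 3000 bp from every start.

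The longest regions more than 2000 bp from every start show what lies there. At AT5G58150, a receptor-like kinase gene that lies inside the annotated span of the convergent gene PHOT2, the region was 791 bp long and sat in coding sequence 318 bp before the end. ABCB16, an ATP-binding cassette transporter gene, had a region of 703 bp centred 477 bp before its end and 4860 bp from the nearest start. AT1G34360, of the translation initiation factor 3 family, had one of 688 bp. The 666 bp region of AT5G10570, a basic helix-loop-helix factor, lay 459 bp beyond the gene over the snoRNA gene AT5G01785. The 642 bp region of FTSZ2-2, whose protein forms part of the chloroplast division ring, lay 303 bp beyond the end over the antisense noncoding gene AT3G52748. The sixth, at AT3G02200, was 639 bp long and had its midpoint 423 bp beyond the end, in coding sequence of the convergent gene COBL1.

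Genes with such a region were shorter than genes without. Their median length was 1944.5 bp (95% interval 1894 to 1992), against 2129 bp (2107 to 2150) for genes that had end space and no region. Genes with H3K27ac at their start had a median of 2315.5 bp and all protein-coding genes 2078 bp. Genes with 1 exon made up 22.8% of those with a region at the end and 17.2% of those without.

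The density differed with gene length inside the gene and, close to starts, beyond the end as well. Inside the gene the density was 40.4 regions per 100 kb for genes under 1 kb, 34.5 for 1 to 2 kb, 25.9 for 2 to 3 kb, 22.0 for 3 to 4 kb and 19.6 for 4 kb and over. Beyond the end, over all distances from starts, it was between 17.1 and 18.4 per 100 kb in all 5 classes. In the stretch more than 2000 bp from every start, the inside densities of the 3 longer classes were 21.6, 20.3 and 18.2 per 100 kb. At 501 to 1000 bp from a start, the inside density was 40.4 per 100 kb for genes under 1 kb, 41.6 for 1 to 2 kb, 31.3 for 2 to 3 kb, 29.4 for 3 to 4 kb and 21.8 for 4 kb and over. At the same distance, the density beyond the end went the other way, with 17.8, 21.3, 27, 30.0 and 28.9 per 100 kb in the same 5 classes. Length and distance from the start cannot be told apart for genes under 1 kb, which hold no position inside them over 1000 bp from their start.

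**Figure D3:**
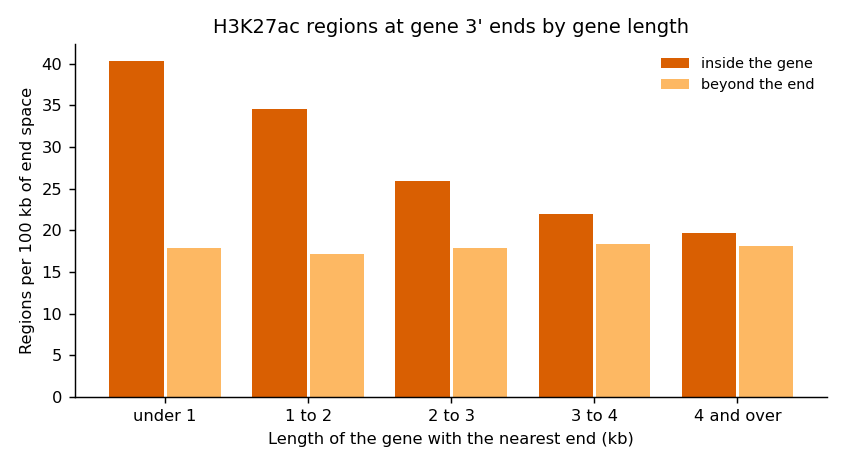
H3K27ac regions at gene 3' ends per 100 kb of end space by length of the gene, for midpoints inside the gene (dark) and beyond its end (light). Inside bars fall from 40.4 for genes under 1 kb to 19.6 for genes of 4 kb and over, while bars beyond the end, which pool all distances from starts, stay between 17.1 and 18.4.

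Genes with a region at the end carried one at the start slightly more often than genes with end space and no region. Of the genes with an H3K27ac region at the end, 53.0% (95% interval 51.4 to 54.6) also had one within 500 bp of their start, against 50.4% (49.8 to 51.0) of genes with end space and no region there. The share over all protein-coding genes was 50.6%. The median gap from a region at a gene end to the nearest other H3K27ac region was 617 bp. Another H3K27ac region stood within 500 bp in 43.8% of cases, and none within 2000 bp in 592 cases.

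The neighbour beyond the end was convergent for 1915 regions (49.2%, 95% interval 47.6 to 50.8), meaning that the end of the next gene faces the end of the first. This is close to the 49.5% of the end space with a convergent neighbour, and 47.9% of genes with end space have one. For convergent neighbours the density varied little with the gap, between 20.5 and 25.3 regions per 100 kb. The largest class was the 632 regions at pairs whose annotated genes overlap, of which 17.9% had their midpoint inside the gene with the nearest end. In such pairs a midpoint outside the shared stretch generally counts as beyond the nearest end. No inside share of the end space was taken for them.

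For neighbours in the same direction the density per end space was higher the smaller the gap. It was 59.5 per 100 kb at 37 regions where the genes overlap, 38.2 at gaps up to 250 bp, 30.7 at 251 to 500 bp, 25.2 at 501 to 1000 bp, 22.6 at 1001 to 2000 bp and 20.1 over 2000 bp. Small gaps leave little end space, and the share of genes with a region was lower there, at 8.61% for overlaps, 4.22% at gaps up to 250 bp and 10.5% at 251 to 500 bp, against 16.2%, 18.9% and 17.0% in the 3 wider classes. A small gap places the start of the next gene close by. Of the 777 regions at gaps of up to 1000 bp or overlaps, 84.4% had their midpoint inside the first gene. At gaps of 0 to 500 bp the rule leaves no end space beyond the first gene, so 100% were inside it by construction. At gaps of 501 to 1000 bp 78.9% were inside, and no like share of the end space was taken. The start of the next gene carried H3K27ac at 57.7% of the 740 regions with gaps of 0 to 1000 bp (95% interval 54.1 to 61.3), against 53.9% of genes with end space at such gaps. At gaps over 1000 bp it did so at 47.8% (44.9 to 50.7), against 39.8% of the genes.

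Among regions within 500 bp of 2 convergent ends, the longest were the one at AT1G26220 and regions at AT1G14190 (782 bp), GAD2 (754 bp) and AT1G73885 (708 bp). GAD2 encodes a glutamate decarboxylase, which makes gamma-aminobutyrate, and its annotated gene overlaps its convergent neighbour by 359 bp. The GAD2 region was centred 22 bp beyond the end and shared 236 bp with H3K4me1, 211 bp with H3 and none with H2A.Z or H3K4me3.

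Noncoding genes on the opposite strand were more common at these regions than in the end space. An antisense noncoding gene, annotated as lncRNA, ncRNA, misc_RNA or antisense_RNA, overlapped 133 regions (3.42%, 95% interval 2.87 to 4.04), against 2.25% of H3K27ac regions at starts, 1.34% of those in gene bodies, 8.08% of those elsewhere and 2.58% of all H3K27ac regions. In every place, antisense meant opposite to the gene with the nearest end. At starts, in bodies and elsewhere, that gene may not be the one under the region. With regions near the start of any annotated gene left out, noncoding genes included, the share at gene ends was 1.11%; this removes regions near antisense starts by construction. Judged by the midpoint alone, which does not depend on region length, 118 regions (3.03%, 2.52 to 3.62) lay in an antisense noncoding gene, as did 1.52% of the end space. Noncoding genes on the same strand held 54 midpoints (1.39%, 1.04 to 1.81) and 0.954% of the end space. Per gene, an antisense noncoding gene came within 500 bp of the end of 228 genes with a region (6.26%, 5.50 to 7.10) and of 1014 genes with end space and no region (4.42%, 4.16 to 4.70), and the share over all genes with end space was 4.67%.

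Longer regions were more often on an antisense gene. Of the 143 regions of at least 500 bp, 20 overlapped one (14.0%, 95% interval 8.76 to 20.8), as did 49 of the 2078 regions of the smallest size (2.36%, 1.75 to 3.11). A longer region has more bases with which to overlap, and its part in this difference was not tested.

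Seen from the noncoding gene, H3K27ac was more frequent downstream than upstream of the antisense start. In the end space, 333 antisense noncoding genes had their start. H3K27ac had at least 1 base in the 500 bp downstream of 28.5% of these starts (95% interval 23.7 to 33.7) and in the 500 bp upstream of 18.3% (14.3 to 22.9). H2A.Z was downstream of 25.5% and upstream of 15.3%, and H3K4me3 downstream of 12.9% and upstream of 4.20%. For H3K4me1 the shares were 13.5% downstream and 11.1% upstream, and for H3 15.9% and 12.9%. H3K27me3 was downstream of 22.8% and upstream of 17.1%. H3K27ac, H2A.Z and H3K4me3 were thus more frequent on the transcribed side, and the intervals of H3K4me1, H3 and H3K27me3 overlapped between the sides. Downstream of an antisense start lies towards or further into the gene. In the whole end space, H3K27ac covered 7.38% of bases inside the gene and 4.43% beyond the end. For H2A.Z these values were 8.29% and 4.58%, and for H3K4me3 1.57% and 0.871%. The part of this general lean in the difference at antisense starts was not tested.

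Over all end space inside antisense noncoding genes, H3K27ac covered 14.4% of bases, against 5.85% of the end space outside them. H3K4me3 covered 3.82% inside and 1.20% outside, and H2A.Z 9.65% inside and 6.48% outside. H3 covered 6.17% inside and 4.64% outside, H3K4me1 7.48% and 6.58%, and H3K27me3 8.06% and 10.2%.

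The named cases carried different sets of marks. At scpl50, a serine carboxypeptidase-like gene, the 877 bp region reached across the start of the lncRNA gene AT1G15002 and shared 417 bp with H2A.Z and none with the other 4 targets. The 786 bp region beyond ASY1, a gene for a protein of the meiotic chromosome axis, covered most of the lncRNA gene AT1G67365 (786 of its 936 bp) and shared 183 bp with H2A.Z alone. The region beyond UGT76E12, a glycosyltransferase gene, was 722 bp long and also shared 183 bp with H2A.Z alone. At AT4G09435, a disease resistance gene, the 663 bp region shared 211 bp with H3 and 411 bp with H3K4me3. All 4 of these regions lay outside protein-coding genes at their midpoint, and no H3K4me1 was called on any of them.

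Of 8 genes picked as well-known cases of antisense or overlapping 3' transcription, 4 had a region at their end: HSFB2A, MAF4, P5CDH and SRO5. P5CDH, an enzyme of proline breakdown, and SRO5 are convergent, overlap by 905 bp and are known as a source of natural antisense small RNAs under salt stress. P5CDH had a region of 787 bp whose midpoint lay 367 bp beyond its end, inside SRO5, and which shared 183 bp with H2A.Z and 316 bp with H3. SRO5 had 2 regions, of 255 bp and 179 bp, and the smaller was covered completely by both H3K4me1 and H3. FLC, DOG1, CBF1 and CDF5 had none within 500 bp of the end. In the annotation used here, an antisense noncoding gene was present at FLC, CBF1 and CDF5, and at none of the 4 genes with a region. Against 13.7% of all genes with end space, 4 of 8 picked genes is a description of this short list.

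Genes of small nucleolar RNAs, which guide the modification of ribosomal RNA, were a further noncoding class under these regions; this class was singled out after the counts were seen. A snoRNA gene overlapped 22 regions at gene ends (0.565%, 95% interval 0.354 to 0.854) and 22 of the 14878 H3K27ac regions at starts (0.148%, 0.0927 to 0.224). A small RNA gene of any class overlapped 30 regions (0.771%), against 0.462% of all H3K27ac regions. The share was 0.376% at starts and 0.115% in gene bodies, but higher, 1.88%, for H3K27ac regions elsewhere. Of the 72 snoRNA genes whose midpoint lay in the end space, 30 had H3K27ac on them (41.7%, 30.2 to 53.9), and 37.4% of their bases were covered, against 5.98% of the whole end space. Over the whole genome H3K27ac touched 142 of 287 snoRNA genes (49.5%) and covered 44.4% of their bases, so the share at gene ends was not above that of snoRNA genes in general. Of the 30, 23 overlapped a region with its own midpoint in the end space. These 30 genes were near 26 different gene ends. H2A.Z and H3K4me3 each touched 18 of the 72 (25.0%), H3K4me1 touched 3 and H3 touched 2. H2A.Z covered 19.9% of the bases of the snoRNA genes, against 6.53% of the whole end space. By comparison, H3K27ac touched 6 of 51 miRNA genes (11.8%, 4.44 to 23.9) and 3 of 177 tRNA genes (1.69%, 0.351 to 4.87) in the end space. Among the snoRNA genes with H3K27ac were U3B, which encodes the U3 RNA of ribosomal RNA processing and had 179 bp covered, SNOR111 with all of its 130 bp covered, and AT1G05137, which lies under the scpl50 region with all of its 98 bp covered.

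**Figure D4:**
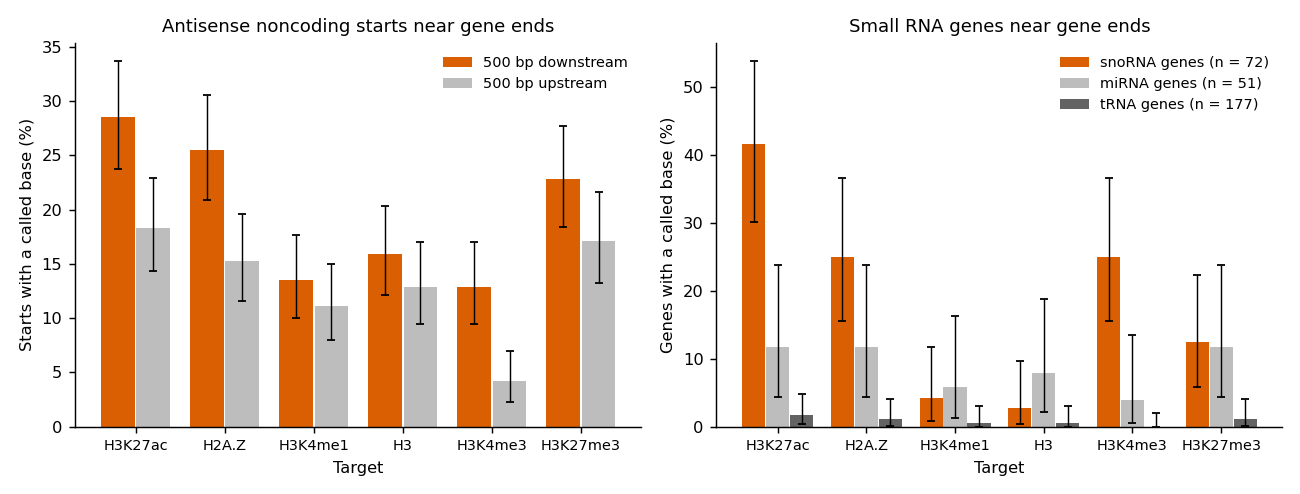
Left, percent of 333 antisense noncoding starts in the end space with a called base of each target in the 500 bp downstream (orange) and upstream (grey). Right, percent of the 72 snoRNA, 51 miRNA and 177 tRNA genes in the end space with a called base of each target. Bars are 95% exact intervals for counting error; H3K27ac is at 28.5% downstream against 18.3% upstream, and on 41.7% of snoRNA genes.

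H2A.Z, which replaces H2A in nucleosomes at the first part of genes, overlapped 1085 of the regions by at least 1 bp (27.9%, 95% interval 26.5 to 29.3). At starts the share was 38.9% (38.1 to 39.7), in gene bodies 30.2% (29.5 to 31.0), and over all H3K27ac regions 33.1%. Inside genes it was 30.3% (28.5 to 32.1) and beyond the end 23.5% (21.3 to 25.9). Regions at 501 to 1000 bp from a start had H2A.Z in 32.0% of cases, those at 1001 to 2000 bp in 25.0% and those beyond 2000 bp in 25.5%. The regions that shared the most bases with H2A.Z were those of ABCB16 (654 bp), AGL39 (500 bp, a MADS-box gene) and SAP10 (478 bp, a stress-associated zinc finger protein). The ABCB16 region also shared 446 bp with H3K4me1 and 189 bp with H3K4me3, and no base with H3 or H3K27me3.

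H3K4me1 overlapped 863 regions (22.2%, 95% interval 20.9 to 23.5). The share was 11.6% (11.1 to 12.1) at starts and 41.2% (40.3 to 42.0) in gene bodies, with 23.7% over all H3K27ac regions. The ends thus lay between the other places. The share differed with the gap to the neighbour. At gaps of up to 500 bp or overlaps, H3K4me1 was on 34.1% of 1156 regions with a convergent neighbour (31.4 to 36.9) and on 30.3% of 360 regions with a neighbour in the same direction (25.6 to 35.3). At gaps over 500 bp it was on 13.2% of 759 regions (10.9 to 15.8) with a convergent neighbour and on 16.1% of 1618 (14.3 to 18.0) with one in the same direction. The end space as a whole had the same order, with H3K4me1 over 11.8% of its bases at close convergent neighbours and 12.1% at close neighbours in the same direction, against 3.70% and 3.74% at gaps over 500 bp. The most bases were shared at AT3G63255 (563 bp), at OBP1, a Dof transcription factor gene (all 561 bp of the region), and at NFC5, of a chromatin assembly factor family (522 bp).

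Histone H3 regions mark DNA recovered with any H3 nucleosome. They overlapped 880 regions at gene ends (22.6%, 95% interval 21.3 to 24.0), 14.3% (13.8 to 14.9) at starts, 26.5% (25.8 to 27.3) in gene bodies and 20.1% of all H3K27ac regions. The most bases were shared at TXND9, a thioredoxin-like gene, with 582 of 814 bp, at AT1G62070 with all 524 bp, and at AT1G34360 with 489 of 688 bp. H3 and H3K4me1 often fell on the same regions: 44.5% (41.1 to 47.9) of regions with H3K4me1 had H3, against 16.4% (15.1 to 17.7) of those without. The same holds for H2A.Z, with H3 on 31.7% (28.9 to 34.6) of regions with it and on 19.1% (17.7 to 20.6) of those without.

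The shares depend on region length, so they were also taken over regions of the smallest size alone. H2A.Z was then on 22.3% of regions at gene ends, 22.8% in gene bodies and 27.4% at starts. H3K4me1 was on 20.1% at gene ends, 40.4% in bodies and 8.83% at starts, and H3 on 19.1% at gene ends, 20.4% in bodies and 8.92% at starts. The order of gene ends and starts was that of the full lists for each of the 3 targets. At equal size the share with H2A.Z at gene ends was close to that in gene bodies.

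**Figure D5:**
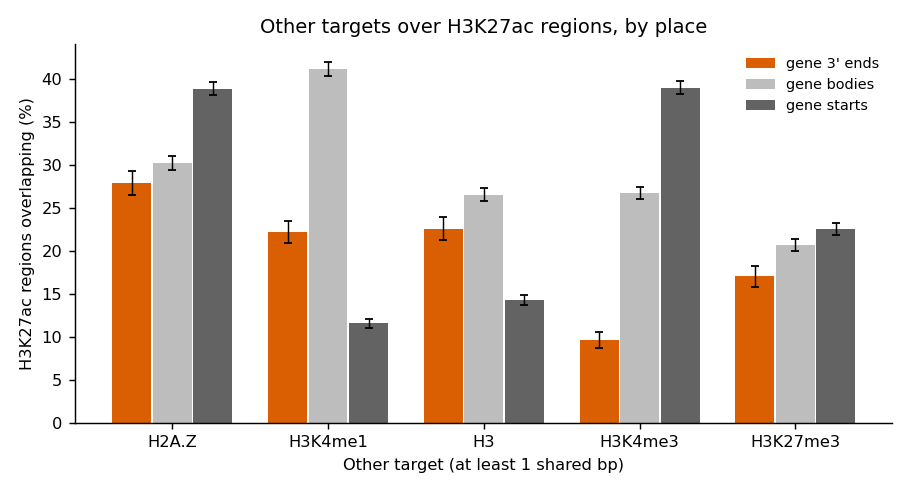
Percent of H3K27ac regions that share at least 1 bp with each other target, for regions at gene 3' ends (orange), in gene bodies (light grey) and at gene starts (dark grey), with 95% exact intervals for counting error. H3K4me3 is at 9.63% at gene ends, 26.7% in bodies and 39.0% at starts.

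H3K4me3, the mark of active starts, was on 375 regions at gene ends (9.63%, 95% interval 8.72 to 10.6), against 39.0% (38.2 to 39.8) at starts, 26.7% (26.0 to 27.5) in gene bodies and 27.9% of all H3K27ac regions. At the smallest size the shares were 5.05% at gene ends, 17.9% at starts and 13.6% in bodies. By distance from starts it was on 13.7% of regions at 501 to 1000 bp, 8.11% at 1001 to 2000 bp and 4.63% beyond 2000 bp. With an antisense noncoding gene under the region it was 20.3% (13.8 to 28.1), against 9.26% (8.35 to 10.2) without. H2A.Z was at 39.8% (31.5 to 48.7) with such a gene and 27.4% (26.0 to 28.9) without, while for H3K4me1 the 2 shares were 18.0% (11.9 to 25.6) and 22.3% (21.0 to 23.7). Regions with an antisense noncoding gene were longer, with a median of 235 bp against 179 bp without. The smallest size made up 36.8% of them, against 54.0% of those without. H3K4me3 was on 5.05% of regions of the smallest size and on 14.9% of longer ones, and H2A.Z on 22.3% and 34.3%. Among regions of at least 500 bp, 46.9% had H3K4me3 and 44.8% had H2A.Z. The part of region length in the differences with and without an antisense gene was not tested.

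H3K27me3, the Polycomb mark of silenced genes, whose library had its own input, overlapped 663 regions (17.0%, 95% interval 15.9 to 18.2), against 22.6% at starts, 20.7% in gene bodies and 20.8% over all H3K27ac regions. At the smallest size the shares were 16.4% (14.8 to 18.0) at gene ends, 18.9% (17.7 to 20.1) at starts and 17.1% (16.2 to 18.1) in gene bodies. Regions with H3K27me3 had H2A.Z in 42.4% of cases (38.6 to 46.2), against 24.9% (23.4 to 26.4) of those without. None of the 5 other targets touched 1546 regions (39.7%, 38.2 to 41.3), against 28.5% (27.8 to 29.3) at starts, 21.6% (20.9 to 22.3) in gene bodies, 53.9% (52.2 to 55.6) elsewhere and 29.5% of all H3K27ac regions. H3 itself is among these targets, so a region with none is one where H3 was not called either. At the smallest size, the share with none was 46.3% (44.1 to 48.5) at gene ends and 45.0% (43.5 to 46.5) at starts. In gene bodies it was 29.3% (28.1 to 30.5), and over all H3K27ac regions of that size 41.0%. At equal size the intervals of gene ends and starts thus overlapped.

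In base composition the regions were closer to the inside of genes than to ends without H3K27ac. The 200 bases around the midpoint had 38.3% ± 6.82 G and C (SD over 3893 windows), those at starts 39.9%, those around gene ends without H3K27ac 31.9%, and those 300 bp inside such ends 39.5%. TATAAA on either strand was in 18.6% of windows at the regions, 14.4% at starts and 33.4% at ends without H3K27ac. AATAAA, the best-known polyadenylation signal, was in 25.5% at the regions, 20.9% at starts and 46.3% at ends without H3K27ac; its letters can overlap a TATAAA match. The telo-box of plant promoters, AAACCCT, was in 5.29% at the regions (95% interval 4.61 to 6.04), 12.5% (11.9 to 13.0) at starts and 3.23% (2.95 to 3.53) at ends without H3K27ac. GGGCC was in 4.03%, 3.62% and 4.49% of the same windows. The windows around ends without H3K27ac are centred on the end, while most regions are not. Set against windows at a like position, regions inside the gene had 39.3% G and C, TATAAA in 16.6% and AATAAA in 23.4%, and windows 300 bp inside ends without H3K27ac had 39.5%, 16.8% and 22.6%. Beyond the end, the regions had 36.4% G and C, TATAAA in 22.1% and AATAAA in 29.3%, against 34.5%, 28.9% and 37.1% in windows 300 bp beyond such ends. For G and C, TATAAA and AATAAA, the differences inside the gene were thus much smaller than those to windows centred on the end. GGGCC was in 3.75% (3.04 to 4.57) of windows at regions inside the gene and 5.05% (4.69 to 5.43) of windows 300 bp inside such ends. AAACCCT was in 5.43% (4.58 to 6.39) and 4.70% (4.36 to 5.07) of these windows. Beyond the end, GGGCC was in 4.54% and 5.71%, and AAACCCT in 5.04% (3.95 to 6.32) and 3.43% (3.13 to 3.76).

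The limits of the rule had regions close by on both sides. The regions at emb2394 and AT1G28610 had their midpoint exactly 500 bp from the end and were kept, while those at RRA2 and MTO1, at 501 bp, were not. Regions at AT1G07660 and AT1G33590, at 501 bp from a start, were kept, while those at MORF9 and MLP-300B, at 500 bp, were not. There were 926 regions at 401 to 500 bp from the end, and a further 1009 at 501 to 600 bp that kept their distance from starts.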

How the data were processed

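The deposited files give, for each library, the chromosome, start and end in bp of the regions the authors called, with no score, height or read count. HOMER, deepTools 2.0, SAMtools 0.1.19 and Bowtie2 are named in the submitters' processing notes, with build TAIR10. Settings and control of the caller were not given in the sources used here. Sequencing depth is unknown, so the number and length of regions are not amounts of a mark.

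Starts were moved to 1-based positions and midpoints classed with Python 3.11.15, NumPy 2.4.6 and SciPy 1.17.1 against RefSeq TAIR10.1 genes (27444 protein-coding), whose nuclear chromosomes contain all region ends. Regions outside the nuclear chromosomes (4 for H3, 2 for H3K27me3, 1 for H3K4me3) were left out. Sharing meant at least 1 bp. No tests were made: shares have exact Clopper-Pearson 95% intervals and medians order-statistic ones. The code was tested on simulated data. Members, gene lists and named cases were chosen with earlier results of these data known. Named cases are the longest regions (of all, over 2000 bp from starts, near antisense starts, between convergent ends), those sharing most bases with H2A.Z, H3K4me1 or H3, listed antisense loci, and regions next to the limits.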

Additional observations from a re-analysis of the deposited data

How the results depend on the processing

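Under 7 alternatives each, the share of regions at gene ends was lower than at starts for H2A.Z and higher for H3K4me1 and H3. Of 53 values under alternatives to the settings used, 37 moved by more than the 95% interval. With zones of 1000 bp, 25.2% of H3K27ac regions were at ends; 60.0% of these were inside the gene, 40.0% had a convergent neighbour, the median gene length was 2072 bp, and H2A.Z, H3K4me1 and H3 were at 29.8%, 30.2% and 24.6%. With zones of 250 bp, 4.67% were at ends, 60.0% of them inside and 53.8% convergent, with H2A.Z at 25.4% and H3K4me1 at 19.5%. Over 1000 bp from every start, 6.48% were at ends, 60.1% inside, 56.3% convergent, with a median gene length of 2189 bp and H2A.Z at 25.2%. This limit removes end space beside same-direction neighbours and in short genes by construction. No neighbour shares or gene lengths of the end space were taken under it. Nor were these, or inside shares, taken for the zones of 250 and 1000 bp. With regions closer than 200 bp joined, 11.3% were at ends, the median gene length was 1996 bp, and H2A.Z, H3K4me1 and H3 were at 30.1%, 24.0% and 24.5%. Without regions of the smallest size in any library, 8.33% were at ends, 68.3% inside, 46.8% convergent and 4.63% on an antisense gene, with a median gene length of 1885 bp and H2A.Z, H3K4me1 and H3 at 19.7%, 14.3% and 13.2%. Requiring 50% of the region to be shared gave H2A.Z 21.3%, H3K4me1 19.4% and H3 19.2%. With starts of all annotated genes kept away, 9.72% were at ends, 67.7% inside and 1.11% on an antisense gene; this removes regions near antisense starts by construction. With all annotated genes as neighbours, 52.5% were convergent, and no like share of genes or end space was taken. No paired analysis was possible because each target had 1 library.

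The files give region borders only, so depth, peak height and the caller's threshold limit every value: a region not called is not a region without the mark. Annotated starts and ends were used, and transcription in these cells was not measured. Neighbouring regions and overlapping genes are not independent, so intervals are too narrow. Near-identical genes can share or lose reads. Whether differences between libraries come from antibody, depth or chromatin cannot be told apart.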

Other observations

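Grouped by words in the annotated product, with groups chosen with earlier results known, genes for ribosomal proteins had an H3K27ac region at their end most often. It was present at 25 of 105 such genes with end space (23.8%, exact 95% interval 16.0 to 33.1), against 13.7% of all genes with end space; their median length was 1469 bp, against 2103 bp for all of these genes. Among the larger groups, genes annotated as DUF, hypothetical or transmembrane proteins had it at 213 of 1256 (17.0%, 14.9 to 19.1). Kinase genes were at 14.4%, F-box genes at 13.6%, transporter genes at 12.1% and genes for histones and histone-related proteins at 9.65% (4.92 to 16.6), and the intervals of all these 4 groups include the overall share. Gene length was not held equal between the groups.

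The same positional rule applied to the other libraries placed 14.2% of H2A.Z regions, 9.73% of H3K4me1 regions, 13.1% of H3 regions, 5.86% of H3K4me3 regions and 15.2% of H3K27me3 regions at gene ends, beside 10.8% of H3K27ac regions and the 13.9% of nuclear bases that meet the rule. H3K4me3 had the lowest share and H3K27me3 the highest.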
